A study of Oreochromis niloticus with 8 samples.

Results

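The genes described here sense sterol in the cell, switch on its supply and take it in through lipoproteins: insig1, insig2, scap, srebf1, srebf2, hmgcs1, acat2, stard4 and ldlr. They were chosen by name, as rows whose identifier equals the gene name, and 7 of the 9 names were found among the 29533 genes listed for each library. The genes hmgcs1 and stard4 were not matched by identifier. The row LOC100712075, which the reference gene table of assembly O_niloticus_UMD_NMBU names hmgcs1, is described beside the 7 and not counted with them. stard4 was not analysed here. The RNA came from the midbrain of Nile tilapia (Oreochromis niloticus), a warm-water cichlid fish, in 4 libraries of cold-exposed fish (cold) and 4 libraries of fish held at normothermy (control). Both groups share species, tissue and selection of polyadenylated RNA. The sources used here give no temperature, length of exposure, strain, sex or age of the fish, nor the number of fish behind a library.

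The sterol sensor works at the membrane of the endoplasmic reticulum, as known mainly from mammalian cells. SREBP transcription factors, made from srebf1 and srebf2, are built as membrane-bound precursors held by the escort protein SCAP. When membrane sterol is plentiful, INSIG proteins keep SCAP and its cargo in the endoplasmic reticulum. When sterol is scarce, SCAP carries SREBP to the Golgi, proteases release its active part, and genes of sterol synthesis and uptake are switched on, INSIG1 among them. The brain makes most of its own cholesterol, since lipoproteins hardly cross the blood-brain barrier, and much of it sits in myelin and in neuronal membranes.

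Levels are in TPM, transcript abundances that take gene length into account and share a fixed total per library, so that different genes can be set side by side. Each library's values summed to 1000000, so the depth of sequencing is unknown. Changes are differences of mean log2(TPM + 1), cold minus control, which understates the change of genes at low levels. They were tested with limma over the 18863 genes that averaged 1 TPM or more in cold or in control libraries. A gene counts as called where its adjusted p (Benjamini-Hochberg) is under 0.05. In that test 36.7% of all genes were called, 13% as higher and 23.6% as lower in cold. After median-of-ratios scaling, which rescales each library by the middle ratio of its genes to their average, 50.6% of the called genes were lower in cold, against 64.5% on the deposited scale, so the balance of falls and rises over all genes depends on the scale. Libraries of 1 group correlated at r = 0.968 to 0.982 across genes, and libraries of different groups at 0.943 to 0.963. Cold 2 (33.3) and control 4 (31.3) stood apart from the other 6 libraries (-22.9 to 2.67) on the second principal component. Since nothing says that the libraries are separate animals, every p-value speaks of the spread among these libraries alone, which may be technical.

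Of the 7 genes, 4 rose in cold (insig1, insig2, srebf1 and acat2), and scap, srebf2 and ldlr were not called. The 4 calls stand beside 13% of all tested genes called higher. At an unadjusted limma p under 0.05, ldlr would be added as the 1 fall. All 7 passed the filter on low values, but ldlr did so only through its level in control libraries. Values of the cold libraries did not overlap those of the control libraries for insig1, insig2 and acat2, all higher in cold, while 13.4% of all tested genes were higher without overlap. In bulk RNA, fewer cells of a type and less RNA per cell cannot be told apart.

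**Figure D1:**
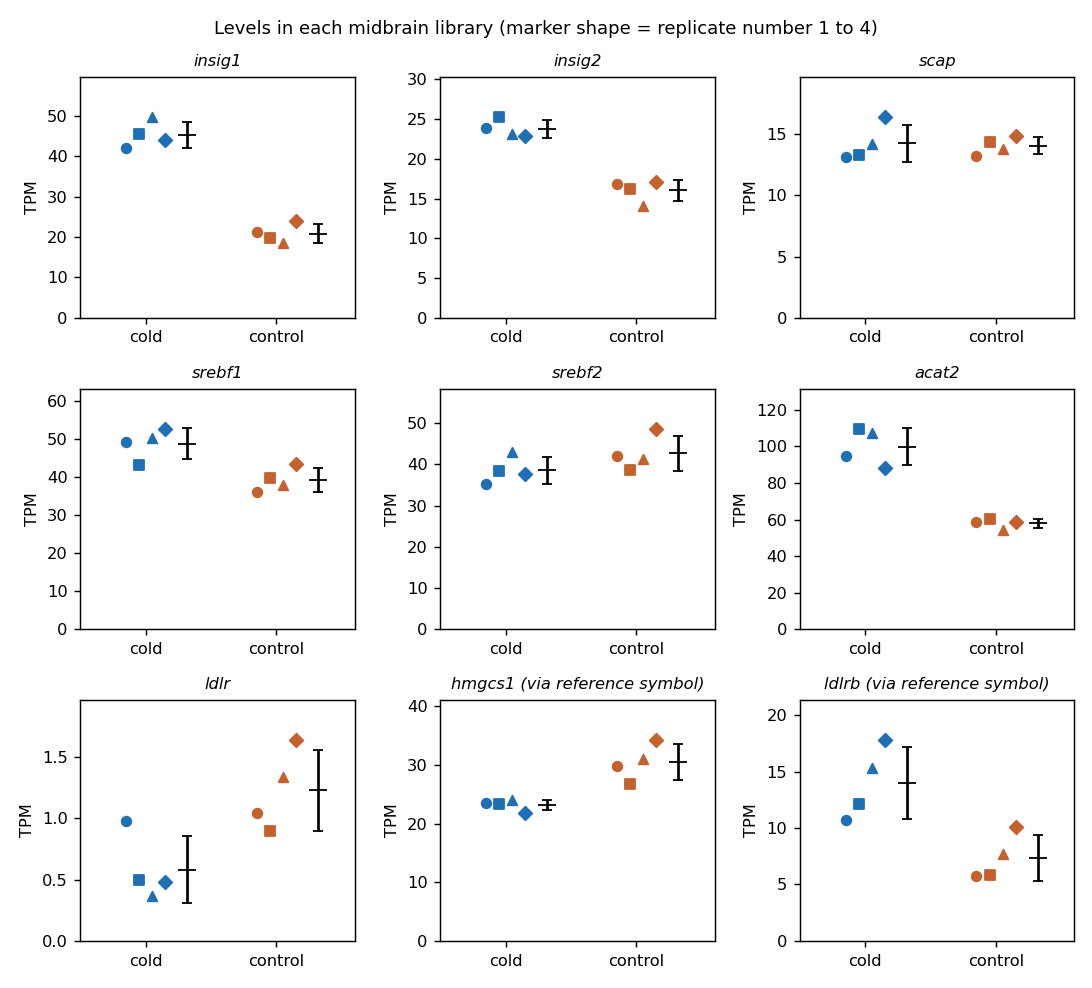
Level (TPM, linear axis from 0) of each gene in the 4 cold and 4 control libraries, with marker shape for the replicate number and, at the right of each group, the mean with its SD. insig1, insig2, acat2 and ldlrb are higher in every cold library than in any control library, hmgcs1 is lower in every cold library, and the groups overlap for scap, srebf1, srebf2 and ldlr.

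insig1, the INSIG gene that SREBP itself switches on in mammals, had 42.1, 45.4, 49.6 and 44.0 TPM in cold libraries 1 to 4, against 21.3, 19.7, 18.4 and 23.9 TPM in control libraries 1 to 4. The lowest cold library was well above the highest control library, and each group was tight, with a highest-to-lowest ratio of 1.18 in cold and 1.299 in control. The mean was 45.3 ± 3.19 TPM in cold and 20.8 ± 2.38 TPM in control (SD, n = 4 each), and the log2 change was 1.09 ± 0.09 (SE; limma adjusted p = 6.18e-05). Of the 18863 tested genes, 254 (1.35%) had a larger rise than insig1.

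insig2, the second INSIG gene, whose protein has the same retaining role, had 23.9, 25.2, 23.1 and 22.8 TPM in cold libraries, against 16.8, 16.2, 14.1 and 17.0 TPM in control libraries. All 4 cold libraries were higher than all 4 control libraries, by a smaller step than for insig1. The means were 23.7 ± 1.08 TPM in cold and 16.0 ± 1.33 TPM in control, with a log2 change of 0.54 ± 0.07 (SE; limma adjusted p = 0.000746). Added together, the INSIG transcripts came to 69.0 ± 3.19 TPM in cold and 36.9 ± 3.57 TPM in control (SD, n = 4 each).

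scap, which encodes the sterol-sensing escort of SREBP, had 13.1, 13.3, 14.2 and 16.4 TPM in cold libraries and 13.2, 14.4, 13.8 and 14.9 TPM in control libraries. The groups overlapped over most of their range. The log2 change was 0.01 ± 0.08 (SE; limma adjusted p = 0.914), and its 95% interval ran from -0.18 to 0.20, which leaves room for a modest change either way. The sign turned without cold 4 (-0.05) or without control 1 (-0.01).

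srebf1, whose product SREBP-1 mainly drives genes of fatty acid synthesis in mammals, had 49.2, 43.1, 50.1 and 52.7 TPM in cold libraries, against 36.01, 39.7, 37.9 and 43.4 TPM in control libraries. The groups touched at cold 2 and control 4, the libraries that stood apart on the second principal component. The means were 48.7 ± 4.07 TPM in cold and 39.3 ± 3.16 TPM in control. The log2 change was 0.31 ± 0.08 (SE; limma adjusted p = 0.0164), and it was 0.41 with both of those libraries left out (limma adjusted p = 0.00491, in a range of 0.00463 to 0.0450 over all alternatives). Leaving them out had to enlarge the change, since cold 2 was the lowest cold library and control 4 the highest control library for srebf1. The exact two-sided permutation test over the 8 libraries gave p = 0.0571, where 0.0286 is the smallest it can give.

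srebf2, whose product SREBP-2 mainly drives genes of sterol synthesis and uptake, had 35.1, 38.4, 42.9 and 37.7 TPM in cold libraries, against 42.1, 38.7, 41.3 and 48.6 TPM in control libraries. Cold 3 lay above 3 of the control libraries, and the other cold libraries lay below all 4. The means were 38.5 ± 3.25 TPM in cold and 42.7 ± 4.21 TPM in control, and the log2 change of -0.14 ± 0.09 was not called (limma adjusted p = 0.223; 95% interval -0.33 to 0.05). Whether the change of srebf1 differs from that of srebf2 was not tested.

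**Figure D2:**
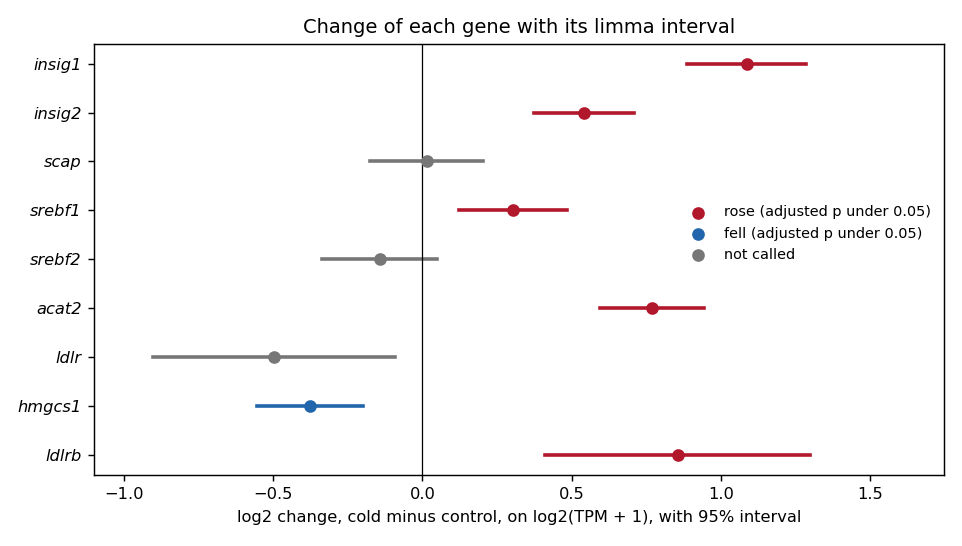
Log2 change (cold minus control, log2(TPM + 1)) of each gene with its 95% limma interval, coloured by call. The intervals are not adjusted for the number of genes tested, so that of ldlr lies below 0 although its adjusted p is 0.0572; insig1 (1.09) has the largest rise shown and hmgcs1 (-0.38) is the only called fall.

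acat2 encodes the cytosolic thiolase that joins acetyl-CoA units into acetoacetyl-CoA, the entry step of the mevalonate pathway. It is a different gene from the sterol acyltransferase genes soat1 and soat2, whose proteins are also abbreviated ACAT. It had 94.7, 109.7, 107 and 88.3 TPM in cold libraries, against 58.7, 60.2, 54.5 and 58.8 TPM in control libraries. The groups were far apart, and the cold libraries were more spread (SD 10.2 TPM) than the control libraries (SD 2.47 TPM). The log2 change was 0.77 ± 0.08 (SE; limma adjusted p = 0.000150), and 3.15% of tested genes had a larger rise.

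The row named hmgcs1 in the reference table (LOC100712075) stands for the synthase that makes HMG-CoA from the product of the thiolase, the next step of the same pathway. It fell in cold, with 23.4, 23.3, 23.99 and 21.9 TPM in cold libraries, against 29.8, 26.8, 30.9 and 34.2 TPM in control libraries. All cold libraries lay below all control libraries, and the cold libraries were within a ratio of 1.097 of each other. The log2 change was -0.38 ± 0.08 (SE; limma adjusted p = 0.00555).

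ldlr, as the files name it, had 0.982, 0.500, 0.366 and 0.482 TPM in cold libraries, against 1.04, 0.896, 1.34 and 1.64 TPM in control libraries. LDL receptors take up cholesterol-carrying lipoproteins. The reference table has no gene under the symbol ldlr, so the identity of this row rests on its identifier alone. Cold 1 lay among the control libraries and the other cold libraries lay below all of them. The log2 change was -0.50 ± 0.18 (SE; limma adjusted p = 0.0572), and -1.003 with a pseudocount of 0.1 in place of 1 (limma adjusted p = 0.0586). Over all alternatives its adjusted p ranged from 0.0340 to 0.201. It was called as lower only without cold 1 (-0.61, limma adjusted p = 0.0340) and without a filter on low values (limma adjusted p = 0.0437). At about 1 TPM this row is near the bottom of the tested range, with 1.55% of tested genes lower.

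Another LDL receptor copy, listed as LOC100711575 and named ldlrb in the reference table, was expressed far higher and rose in cold. It had 10.7, 12.1, 15.3 and 17.8 TPM in cold libraries, against 5.73, 5.83, 7.66 and 10.05 TPM in control libraries. The groups did not overlap, though cold 1 and control 4 were close. The log2 change was 0.86 ± 0.20 (SE; limma adjusted p = 0.00893). The sources used here do not say how reads shared by receptor copies were divided, so the values of single copies are uncertain.

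The order of the levels differed between the groups. In cold the means ran from acat2 (99.99 TPM) through srebf1 (48.7), insig1 (45.3), srebf2 (38.5), insig2 (23.7) and scap (14.2) to ldlr (0.582 TPM). In control they ran from acat2 (58.0 TPM) through srebf2 (42.7), srebf1 (39.3), insig1 (20.8), insig2 (16.0) and scap (14.1) to ldlr (1.23 TPM). Among the neighbours in cold, the ranges over the libraries overlapped for srebf1 and insig1, and for insig1 and srebf2. Within each cold library, insig1 stood above srebf2. In control, the ranges of srebf1 and srebf2 overlapped, as did those of insig2 and scap, though insig2 stood above scap within each library. insig1 stood below both SREBP genes in every control library.

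Ratios of levels within a library do not depend on how libraries are scaled to each other, and are given as a description with no test. The ratio of insig1 to insig2 was 1.76, 1.80, 2.15 and 1.93 in cold libraries, against 1.27, 1.22, 1.305 and 1.41 in control libraries. The ratio of srebf1 to srebf2 was 1.40, 1.12, 1.17 and 1.40 in cold libraries, against 0.856, 1.02, 0.917 and 0.894 in control libraries. Both ratios were higher in every cold library.

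The ratio of hmgcs1 to acat2, neighbours in the pathway, was 0.247, 0.212, 0.224 and 0.248 in cold libraries, against 0.508, 0.445, 0.568 and 0.581 in control libraries. That these do not overlap follows from the levels, since hmgcs1 was lower and acat2 higher in every cold library. A further pair of ratios was added after the values were seen. The ratio of insig1 to srebf2 was 1.198, 1.18, 1.16 and 1.17 in cold libraries, against 0.507, 0.509, 0.446 and 0.493 in control libraries. Its highest and lowest cold values differed by a ratio of 1.04, although insig1 alone varied by a ratio of 1.18 and srebf2 by a ratio of 1.22. In control libraries it varied by a ratio of 1.14, insig1 by 1.299 and srebf2 by 1.256. How often other pairs of genes are as close was not examined. The ratio of insig1 to scap was 3.21, 3.42, 3.49 and 2.69 in cold libraries, against 1.62, 1.37, 1.34 and 1.61 in control libraries. That neither ratio of this added pair overlaps between the groups also follows from the ranges of the gene levels.

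**Figure D3:**
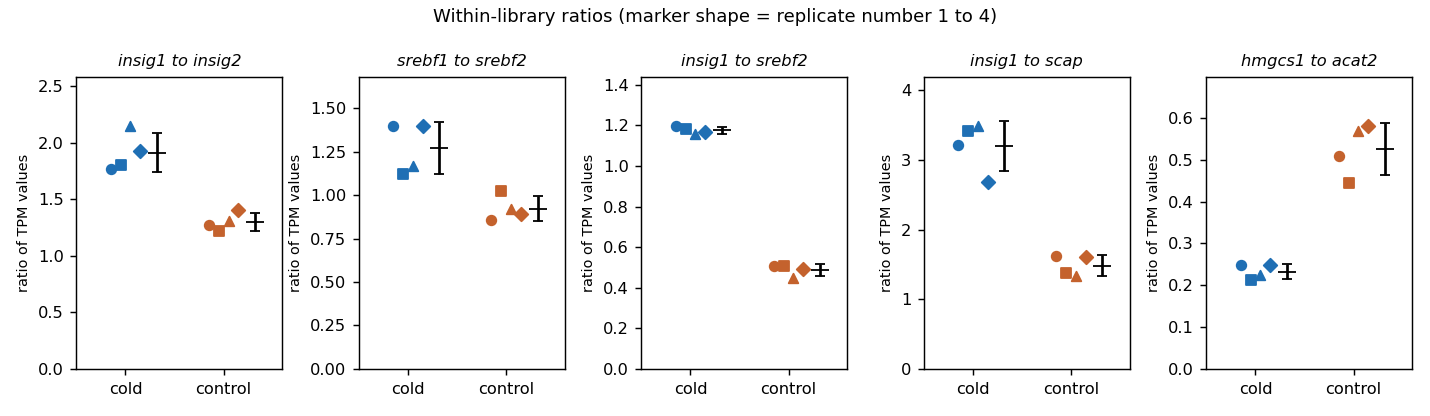
Ratios of TPM values within each library (linear axis from 0) for the 4 cold and 4 control libraries, with mean and SD at the right of each group. None of the 5 ratios overlaps between the groups. For hmgcs1 to acat2, insig1 to srebf2 and insig1 to scap this follows from the ranges of the gene levels themselves. The ratios of insig1 to srebf2 and to scap were added after the values were seen. insig1 to srebf2 lies between 1.16 and 1.198 in cold and between 0.446 and 0.509 in control, and hmgcs1 to acat2 is lower in cold.

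The 7 genes were spread over the range of expression in the midbrain. acat2 was higher than 89.6% of tested genes, srebf1 than 80.6%, srebf2 than 78.9%, insig1 than 74.0%, insig2 than 60.1% and scap than 50.1%. By the size of the change, 6.44% of tested genes had a larger rise than insig2 and 14.4% a larger rise than srebf1.

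**Figure D4:**
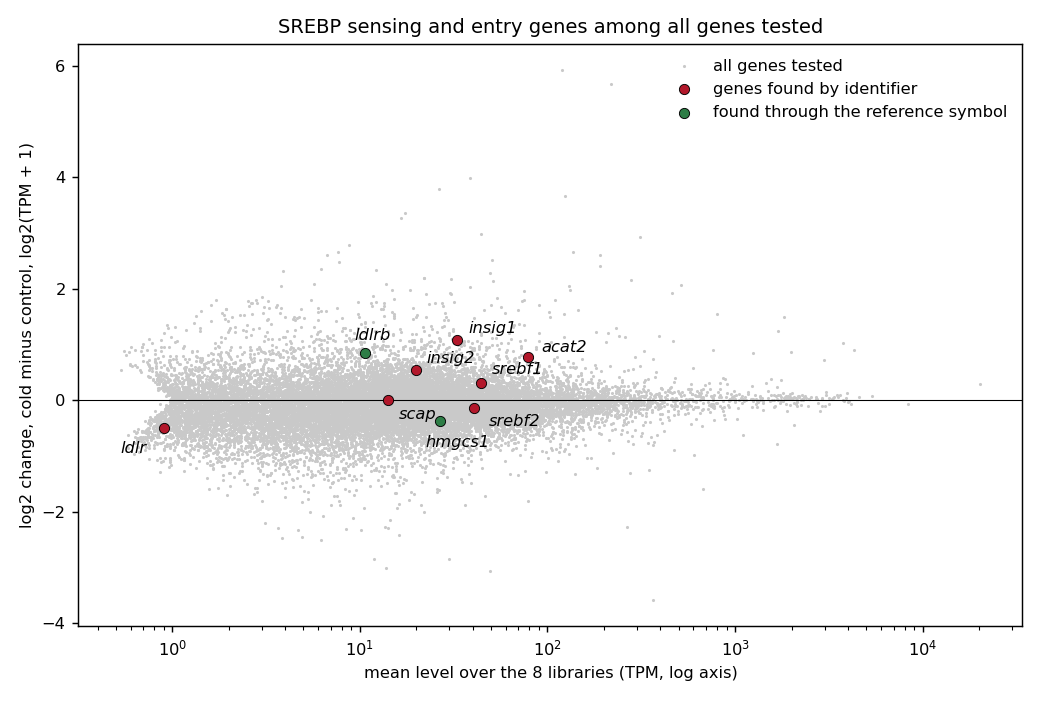
Log2 change (cold minus control, log2(TPM + 1)) against mean level (TPM, log axis) for all 18863 tested genes, with the described genes marked. insig1, acat2, ldlrb and insig2 lie above most genes of their level, scap and srebf2 lie near 0, and ldlr lies at the low end of expression.

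Genes with the most similar profile were taken as those with the smallest root mean square difference of centred log2(TPM + 1) values over the 8 libraries, among 9222 other tested genes that carry a name in the files. Nearest to insig1 were hopx (0.07), map3k20 (0.09) and tesk1 (0.10). hopx averaged 333 TPM in cold and 149 TPM in control. Nearest to insig2 were arfgap3 (0.07), setbp1 (0.07) and rrp12 (0.07), and nearest to acat2 were ngdn (0.06), rgp1 (0.07) and coasy (0.07). For srebf1 they were pxdc1 (0.05), stat3 (0.06) and prdm2 (0.06), and for srebf2 ap4b1 (0.05), lin7b (0.06) and nos1ap (0.06). For hmgcs1, among 9223 genes, they were vegfd (0.05), hibch (0.06) and kiaa1217 (0.06). None of these nearest genes belongs to the lists of sterol and lipid genes below. That absence says little, since few genes were taken from so many. Genes named only through the reference table, such as cyp51, scd and ldlrb, could not appear.

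The enzymes after HMG-CoA mostly went down with hmgcs1 and opposite to acat2. Of 18 tested genes of sterol synthesis, 1 rose and 11 fell, with a median log2 change of -0.56, beside -0.09 over all tested genes. Of the list, 66.7% was called, against 36.7% of all tested genes. The 6 genes not called included the abundant pmvk (49.1 ± 3.42 TPM in cold, 50.1 ± 2.13 TPM in control) and fdps (33.2 ± 2.07 TPM in cold, 31.7 ± 1.78 TPM in control). The genes lss and hsd17b7 were under 1 TPM in every library and were not tested. The rise was that of idi1, which interconverts the isoprenoid units, with 53.5, 54.8, 55.7 and 52.1 TPM in cold libraries, against 31.2, 30.2, 31.2 and 34.5 TPM in control libraries (log2 change 0.75 ± 0.06, SE; limma adjusted p = 4.64e-05). The squalene epoxidase gene sqle had 1.57, 1.72, 1.81 and 1.24 TPM in cold libraries, against 7.89, 6.08, 8.05 and 11.2 TPM in control libraries. It had the largest called fall of the list, with a log2 change of -1.83 ± 0.17 (SE; limma adjusted p = 0.000102).

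nsdhl, a later enzyme gene of the same pathway that acts in sterol demethylation, was lower in every cold library too. It averaged 1.37 ± 0.341 TPM in cold and 5.002 ± 0.604 TPM in control (log2 change -1.35). hmgcra, a gene of the rate-limiting HMG-CoA reductase, was not called at 8.25 ± 0.851 TPM in cold and 11.7 ± 4.07 TPM in control (SD, n = 4 each; limma adjusted p = 0.119). Its level in control 4 was 17.7 TPM, against 9.17 to 10.2 TPM in the other control libraries, and its log2 change was -0.41, or -0.21 without control 4.

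**Figure D5:**
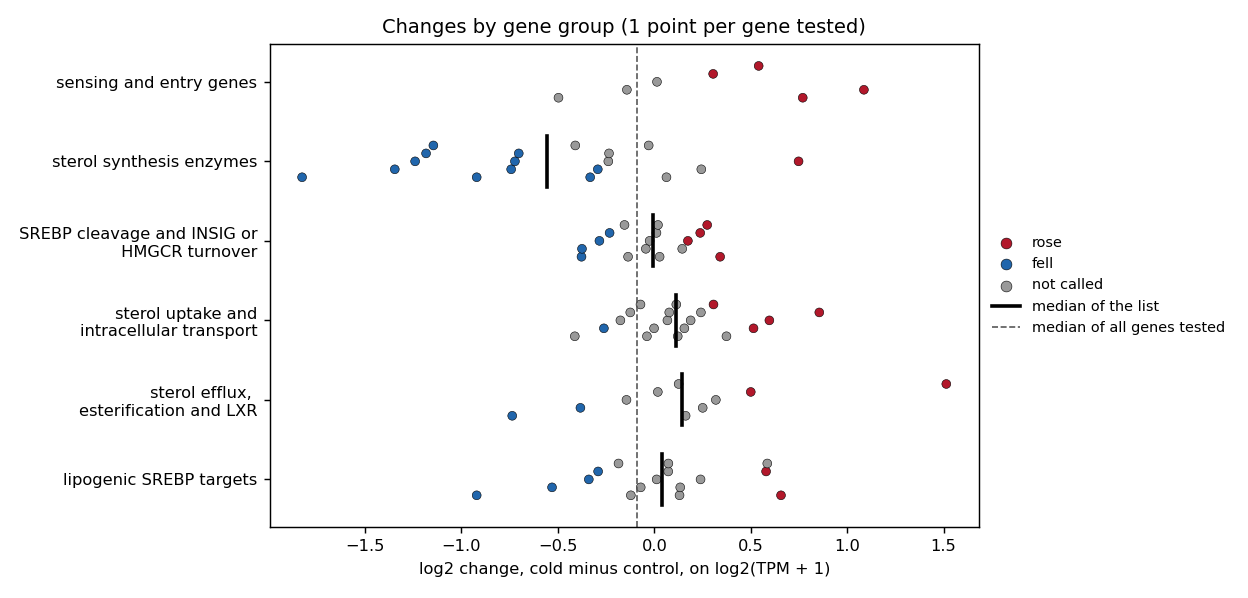
Log2 change (cold minus control, log2(TPM + 1)) of each tested gene in the sensing and entry genes and in the 5 related lists, coloured by call, with the median of each list as a bar and that of all tested genes (-0.09) as a dashed line. The sterol synthesis enzymes lie mostly to the left with idi1 alone among their rises, and the other lists spread to both sides.

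Genes that cleave SREBP or break down INSIG and HMG-CoA reductase moved both ways by small amounts. Of 16 tested, 4 rose and 4 fell (median log2 change -0.01), so that 50% were called, against 36.7% of all tested genes (13% higher, 23.6% lower). faf2, an adaptor that draws ubiquitinated membrane proteins to degradation, averaged 47.1 ± 2.23 TPM in cold and 37.0 ± 2.71 TPM in control. vcp, the ATPase that pulls such proteins out of the membrane, averaged 239 ± 13.7 TPM in cold and 202 ± 12.9 TPM in control. These genes rose. The ubiquitin ligase genes of the list did not move together. The genes amfr (87.3 ± 2.56 TPM in cold, 77.3 ± 3.47 TPM in control) and rnf139 (17.9 ± 1.72 TPM in cold, 14.6 ± 0.364 TPM in control) rose. The ligase gene syvn1 fell (21.4 ± 1.46 TPM in cold, 25.3 ± 0.550 TPM in control; limma adjusted p = 0.0194), and rnf145 was not called (22.2 ± 1.51 TPM in cold, 24.5 ± 1.55 TPM in control; limma adjusted p = 0.169). The calls of amfr and rnf139 were lost when certain libraries were left out, for amfr cold 3, cold 4, control 1 or control 2 (limma adjusted p up to 0.0648) and for rnf139 cold 2, cold 3, control 1, control 2 or control 4 (up to 0.0631). With control 4 and cold 2 left out together, both calls were lost (limma adjusted p = 0.0506 for amfr and 0.0990 for rnf139). The call of syvn1 was lost without cold 3 or control 3, with control 4 and cold 2 left out together, and with median-of-ratios scaling, which gave the highest limma adjusted p (0.0775).

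The other falls of that list were those of erlin2, a membrane scaffold gene (16.3 ± 0.478 TPM in cold, 21.5 ± 1.36 TPM in control), and ube2g2, a ubiquitin-conjugating enzyme gene (56.3 ± 6.27 TPM in cold, 73.0 ± 2.1004 TPM in control). The third was that of mbtps2, the gene of the site-2 protease that releases SREBP (8.70 ± 0.402 TPM in cold, 10.9 ± 1.21 TPM in control), which passed in only 6 of 15 alternatives and not with median-of-ratios scaling (limma adjusted p = 0.106, in a range of 0.0287 to 0.106). The gene mbtps1 of the site-1 protease was not called (36.1 ± 1.33 TPM in cold, 40.3 ± 1.99 TPM in control; limma adjusted p = 0.0594). The 8 calls became 4 without cold 3 and 5 without control 2, and 4 with control 4 and cold 2 left out together. With median-of-ratios scaling, 5 genes of this list rose and 2 fell.

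Among genes of sterol uptake and transport, 4 of 19 tested rose and 1, lrp8, fell (median log2 change 0.11). That is 26.3% called, against 36.7% of all tested genes (13% higher, 23.6% lower). With median-of-ratios scaling all 5 calls were rises. The fall of lrp8, a receptor of apolipoprotein E and reelin (34.0 ± 4.07 TPM in cold, 40.9 ± 2.86 TPM in control; limma adjusted p = 0.0499), passed in 5 of 15 alternatives, with an adjusted p from 0.0187 to 0.163. Besides ldlrb, the rises included stard3, a late-endosome sterol transporter gene (24.2 ± 2.47 TPM in cold, 19.3 ± 0.818 TPM in control), and mylip, whose product marks LDL receptors for degradation (13.5 ± 2.48 TPM in cold, 8.53 ± 1.49 TPM in control). The groups overlapped for mylip at cold 2. The call of stard3 was lost with control 4 and cold 2 left out together (log2 change 0.29, limma adjusted p = 0.0647, in a range of 0.00439 to 0.0647 over all alternatives).

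In the list of sterol efflux, storage and oxysterol genes, 2 of 10 tested rose and 2 fell (median log2 change 0.14), and 1 of each among 7 when the filter was set at 5 TPM. The share called, 40%, was near the 36.7% of all tested genes. ch25h, whose product makes the oxysterol 25-hydroxycholesterol, a ligand of INSIG in mammals, had 1.79, 2.44, 2.05 and 3.59 TPM in cold libraries. In control libraries 1 and 2 it had 0.324 and 0.524 TPM, and it was listed at 0 in control 3 and control 4. It was detected in every cold library at a higher level than in any control library, and it passed the filter only through its level in cold libraries. Its log2 change was 1.51 ± 0.22 (SE; limma adjusted p = 0.000892), and 3.45 with a pseudocount of 0.1 (limma adjusted p = 0.00391, in a range of 0.000734 to 0.00826 over all alternatives). Another row that the reference table names ch25h (LOC100701652) was under the filter, at 0 to 0.691 TPM in cold libraries and 0.220 to 0.502 TPM in control libraries. Its groups overlapped and it was not tested.

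soat1, the gene of the enzyme that esterifies sterol for storage, rose to 26.8 ± 3.49 TPM in cold, against 18.6 ± 0.916 TPM in control. cyp7b1, an oxysterol hydroxylase gene, fell to 32.2 ± 1.76 TPM in cold, against 42.3 ± 1.77 TPM in control. rxra, the gene of a partner of the sterol receptor LXR, fell to 2.57 ± 0.290 TPM in cold, against 4.97 ± 0.752 TPM in control. The LXR gene nr1h3 was not called (31.4 ± 0.697 TPM in cold, 34.8 ± 1.98 TPM in control; limma adjusted p = 0.0774).

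Of 16 tested lipogenic genes known as SREBP targets in mammals, 2 rose and 4 fell (median log2 change 0.04), and 3 rose and 3 fell with median-of-ratios scaling. The share called, 37.5%, was near the 36.7% of all tested genes, as were its shares in each direction. The stearoyl-CoA desaturase gene scd rose, with 182, 186, 198 and 191 TPM in cold libraries, against 121, 126, 130.1 and 128 TPM in control libraries. lpin1, a phosphatidate phosphatase gene, rose to 17.2 ± 1.14 TPM in cold, against 10.6 ± 1.18 TPM in control. A more abundant row that the reference table names lpin1a overlapped between the groups and was not called (52.0 ± 7.48 TPM in cold, 47.1 ± 2.51 TPM in control; limma adjusted p = 0.335). acss2l, named after an acetyl-CoA synthetase, fell to 11.9 ± 1.43 TPM in cold, against 23.4 ± 2.19 TPM in control, and the elongase gene elovl6 fell to 110.2 ± 4.82 TPM in cold, against 135 ± 5.41 TPM in control. The fatty acid synthase gene fasn was not called (81.5 ± 8.80 TPM in cold, 69.0 ± 9.28 TPM in control; limma adjusted p = 0.111), but passed as higher with median-of-ratios scaling (0.0364), without control 4 (0.0405) and with control 4 and cold 2 left out together (0.0244), where the range over all alternatives was 0.0244 to 0.250.

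Markers of the cells in the tissue were read beside these values. Over all tested genes, 23.6% were called lower and 13% higher. Called lower were 44.4% of midbrain, 50% of endothelial and 33.3% of radial glia and astroglia markers. The 23.1% of neuron and 20% of oligodendrocyte markers called lower were near or under the share of all genes. Of the microglia markers 57.1% were called in either direction, against 36.7% of all tested genes. All 9 midbrain markers reached 1 TPM in at least 1 library, and 4 of them fell (lmx1bb, th, en1a and pax7). The markers en1b, otx2b, en2a, th2 and slc6a3 were not called. Of these, th2 (8.90 TPM in cold, 7.09 TPM in control) and slc6a3 (8.70 TPM in cold, 8.41 TPM in control) averaged slightly higher in cold. The summed level of the midbrain markers was 70.9 to 80.2 TPM in cold libraries, against 86.7 to 119 TPM in control libraries. The summed endothelial markers were likewise lower, at 100.2 to 133 TPM in cold and 144 to 200.3 TPM in control. Among the 6, kdr, kdrl and tie1 fell, while cldn5, cldn5b and cdh5 overlapped between the groups and were not called. Of these, cldn5 was the most abundant and averaged lower in cold (59.3 against 77.9 TPM, limma adjusted p = 0.0795). cdh5 averaged 5.52 TPM in cold and 5.74 TPM in control, and cldn5b was higher in cold (10.2 against 8.38 TPM). Of 10 oligodendrocyte markers 2 fell (sox10 and olig2), and their sum, mostly the myelin gene mbpa, overlapped (10646 to 12857 TPM in cold, 9740 to 13513 TPM in control). The sums of 13 neuron markers (6206 to 7011 TPM in cold, 6767 to 7290 TPM in control, 3 falls), 9 radial glia and astroglia markers (6406 to 8427 TPM in cold, 7678 to 8723 TPM in control, 3 falls) and 7 microglia markers (2076 to 2438 TPM in cold, 1630 to 2498 TPM in control, 1 rise and 3 falls) overlapped as well. The neuron sum was mostly snap25, which was not called, while elavl4, gad2 and elavl3 fell. The radial glia and astroglia sum was mostly s100b, fabp7 and slc1a2, none of them called. The falls in that list were those of glula (405 TPM in cold, 798 TPM in control), cyp19a1b (254 TPM in cold, 433 TPM in control) and glulb (780 TPM in cold, 980 TPM in control). Neither list had a rise. The microglia sum was mostly cd74b, cd74 and apoc1, none of them called, and the less abundant genes p2ry12, csf1r and ptprc of that list fell. p2ry12 (LOC100692921), a purine receptor gene of resting microglia, averaged 2.25 ± 0.589 TPM in cold and 25.2 ± 4.67 TPM in control (log2 change -3.01, limma adjusted p = 9.86e-06). csf1r averaged 9.53 ± 0.967 TPM in cold and 13.3 ± 1.61 TPM in control, and ptprc 13.6 ± 2.54 TPM in cold and 22.2 ± 5.39 TPM in control. The call of csf1r was lost with control 4 and cold 2 left out together (limma adjusted p = 0.0600, in a range of 0.00761 to 0.0600). The 1 rise was that of aif1l (127 ± 10.9 TPM in cold, 108 ± 4.19 TPM in control), which was lost without cold 3, control 3 or control 4 and with control 4 and cold 2 left out together (limma adjusted p up to 0.0698). Blood markers varied widely within both groups (23.0 to 112 TPM in cold, 14.5 to 89.4 TPM in control, alas2 and slc4a1a not called), with the highest sums in cold 4 and control 2. The pituitary markers summed to 14.2 to 40.1 TPM in cold and 24.8 to 39.4 TPM in control, with 1 fall among 6 tested. The liver markers summed to 2.94 to 10.7 TPM in cold and 3.02 to 3.15 TPM in control, the 1 tested gene not called. Some pituitary genes stood out in single libraries. The gene prl had 6.59 TPM in cold 3 but 0 in all control libraries and in cold 1 and cold 4. The gene gh1 had 10.98 TPM in cold 4 and 0 in the other cold libraries. In control 3, lhb had 11.3 TPM and cga 7.13 TPM, and neither exceeded 1.87 TPM elsewhere. The part of these differences in the changes of the sterol genes was not tested.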

How the data were processed

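The authors deposited 1 list of TPM values per library, each with 29533 genes; the unit was read from the values, which sum to 1000000 in every library. TRIzol extraction, capture on poly(dT) beads and an Illumina TruSeq kit are stated per the labels' protocols. The submitters' processing notes name HISAT2. What counted the reads, on which build and annotation and with what handling of strand and shared reads was not given in the sources used here. TPM keeps no depth, so no counting interval is given.

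Groups and replicate numbers came from the sample titles. limma 3.58.1 in R 4.3.3 was fitted with the trend option to log2(TPM + 1) over all 8 libraries, without covariates, for genes averaging 1 TPM or more in at least 1 group. The test was two-sided, with Benjamini-Hochberg adjustment over all 18863 genes. It was also run on simulated data with few changed genes and independent noise. That setting is simpler than these data, so the run does not vouch for the calls given here. Errors are SD for means and SE for log2 changes. Exact permutation tests used all 70 regroupings.

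Of 19370 identifiers starting with LOC, 6153 received a symbol from the reference gene table of O_niloticus_UMD_NMBU, which was used for names alone. The genes and lists were chosen with earlier results of these data known. All genes found were named. In each list up to 4 called genes of lowest p were named, with ldlrb, except for some that are not reported here. Other list genes given values were chosen after their values were seen (hmgcra, pmvk, fdps, amfr, rnf139, mbtps1, mbtps2, lrp8, nr1h3, fasn, syvn1, rnf145, lpin1a, and marker genes other than the 2 highest of each list). Alternatives covered the pseudocount, the filter, the scaling, the empirical Bayes option, the replicate number and left-out libraries. No protein or promoter sequences were used here.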

Additional observations from a re-analysis of the deposited data

Results flagged for a closer look

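Within the groups of 4 libraries, a sample was looked at again where its gap to the nearest other sample took up more than 0.829 of the group's range, a limit that chance passes in about 1 of 20 groups. Of 84 groups examined, 3 passed. The HMG-CoA reductase gene hmgcra had 17.7 TPM in control 4, against 9.17 to 10.2 TPM in the other control libraries. The other two were for the ubiquitin-conjugating enzyme gene ube2g2. Its level in cold 2 was 65.6 TPM, against 51.9 to 53.8 TPM in the other cold libraries. Its level in control 3 was 76.1 TPM, against 71.7 to 72.4 TPM in the other control libraries. Its groups did not overlap, and none of the sensing and entry genes passed this limit.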

How the results depend on the processing

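The calls of insig1, insig2, srebf1 and acat2 as higher in cold, and of hmgcs1 as lower, held under all 15 alternatives. Their log2 changes ranged from 1.03 to 1.16, from 0.48 to 0.62, from 0.27 to 0.41, from 0.72 to 0.85 and from -0.43 to -0.30, and the highest limma adjusted p was 0.0450, for srebf1. scap turned sign without cold 4 or control 1 (-0.051 to 0.049 over the left-out libraries). ldlr passed the threshold without a filter on low values (log2 change -0.50) and without cold 1 (-0.61 to -0.41 over the left-out libraries), so the number of the 7 genes called was 4 to 5. Called genes of SREBP cleavage and turnover numbered 4 to 8 over the left-out libraries and 4 with control 4 and cold 2 left out together. Called genes of sterol efflux numbered 2 to 6 over all alternatives. The 2 came with a filter at 5 TPM, since 7 genes were then tested, and the 6 without control 4. Called genes of sterol synthesis numbered 9 to 12, with 9 when the replicate number was a block. Over all genes, 5532 to 6908 were called under the alternatives, against 6914.

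Replicate numbers run from 1 to 4 in both groups, but over all tested genes they gave no sign of pairing the libraries. Deviations from the group means correlated at -0.01, -0.15, 0.05 and -0.23 for the 4 same-numbered pairs. Of the cold libraries, 0 of 4 correlated best with the control library of their own number. A pairing that touches few genes or has a small effect could be missed this way. With the replicate number as a block, 5642 genes were called, called genes of sterol uptake numbered 3 instead of 5, stard3 lost its call (limma adjusted p = 0.0549), and insig1, insig2, srebf1 and acat2 were called. The calls of rnf139, amfr, syvn1, mbtps2 and lrp8 depended on single libraries or on the scaling, and fasn passed in 3 alternatives; the cause was not tested. The unknown depth limits what can be said of genes near 1 TPM, such as ldlr and ch25h, and sqle and nsdhl in cold libraries.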
